A study of Mus musculus with 4 samples.

Results

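Chil3 and Retnla are 2 mouse genes for secreted proteins of myeloid cells, followed here across splenic monocytes with and without the microRNA miR-146a. They were selected on the measured signals themselves, out of 18194 genes represented on the arrays, because these differed in opposite directions between knockout and control Ly6Clow monocytes, so that difference is given below as a description and carries no test. Each gene had 1 probe set annotated to it alone (1419764_at for Chil3 and 1449015_at for Retnla), and 1 further probe set (1425451_s_at) was annotated to both Chil4 and Chil3. The 4 groups, with 1 array each, were WT Ly6Chigh, KO Ly6Chigh, WT Ly6Clow and KO Ly6Clow. WT mice are labelled C57BL/6 and, in the source label, as control littermates, while KO (miR-146a-/-) mice are labelled B6(FVB)-Mir146tm1.1Bal/J, a strain in which the miR-146a gene is deleted in the germ line. Ages and sexes were not given in the sources used here. Spleen cells were enriched for CD11b with magnetic beads and sorted as CD11b+Ly6Chigh or CD11b+Ly6Clow to a stated purity over 97%, and each array received labelled cRNA made from 100 ng of RNA pooled from several mice. Red cells had been lysed for 4 min with buffers named RBC and ACT. Read literally, the protocol assigns the RBC buffer to WT and the ACT buffer to KO spleens, and on that reading buffer and genotype cannot be told apart. With a single array per group, no difference below has a replicate check, a standard error or a p-value, and the spread between mice was averaged away in the pools before measurement.

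Chil3, also called Ym1, encodes a chitinase-like lectin that binds sugars but does not cleave chitin, and is secreted by monocytes, macrophages and neutrophil precursors. Retnla, also called RELM-alpha or Fizz1, encodes a cysteine-rich hormone-like protein of the resistin family. In macrophages both genes are textbook targets of interleukin 4 and interleukin 13, which act through the IL-4 receptor and the transcription factor STAT6, and the pair is commonly read as a marker of alternative activation. In blood and spleen, Chil3 is also part of the program of Ly6Chigh monocytes, the classical inflammatory subset, from which the vessel-patrolling Ly6Clow monocytes arise. miR-146a represses Traf6 and Irak1, adaptors of Toll-like and interleukin 1 receptors that lead to NF-kB.

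The sequences on which the gene pair and the knockout rest are shown first, from RefSeq on build GRCm38.p6. The deleted microRNA is transcribed from chromosome 11, chr11:43374435-43374456 on the minus strand, and its mature sequence of 22 bases is printed with the seed, bases 2 to 8, in capitals.
mmu-miR-146a-5p: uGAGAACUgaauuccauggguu
The 250 bases before the annotated start of Chil3 (chr3:106167565-106167814, minus strand), of its near copy Chil4 (chr3:106219480-106219729, minus strand) and of Retnla (chr16:48842359-48842608, plus strand) are given 5′ to 3′, with matches to the searched motifs in capitals.
Chil3: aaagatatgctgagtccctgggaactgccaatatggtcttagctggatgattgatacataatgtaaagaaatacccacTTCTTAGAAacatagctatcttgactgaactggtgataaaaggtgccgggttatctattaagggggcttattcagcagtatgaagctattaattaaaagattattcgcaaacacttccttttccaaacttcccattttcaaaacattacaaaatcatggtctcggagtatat
Chil4: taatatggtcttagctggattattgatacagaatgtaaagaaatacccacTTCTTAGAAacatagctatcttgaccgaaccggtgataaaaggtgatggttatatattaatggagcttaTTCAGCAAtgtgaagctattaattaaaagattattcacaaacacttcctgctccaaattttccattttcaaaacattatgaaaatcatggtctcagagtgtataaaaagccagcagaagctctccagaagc
Retnla: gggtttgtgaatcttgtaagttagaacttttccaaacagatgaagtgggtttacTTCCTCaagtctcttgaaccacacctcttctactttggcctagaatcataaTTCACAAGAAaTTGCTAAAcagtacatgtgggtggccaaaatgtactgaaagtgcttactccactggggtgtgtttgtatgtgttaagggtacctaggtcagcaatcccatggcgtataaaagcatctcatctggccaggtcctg
The motifs were picked after these sequences had been seen and were searched on both strands. TTCNNNNGAA, the spacing that STAT6 prefers, occurred in 5.85% of 32851 mouse promoters of this length and was found in Retnla as TTCACAAGAA, beginning 145 bases before the start. TTCNNNGAA, the spacing that other STAT proteins prefer, occurred in 7.02% of promoters and was found as TTCTTAGAA in Chil3 and Chil4, beginning 172 and 200 bases before their starts. The C/EBP motif TTGCNNAA, in 9.56% of promoters, was matched in Retnla (TTGCTAAA) and on the reverse strand in Chil4 (TTCAGCAA) but not within the Chil3 window. The PU.1 motif GAGGAA, in 23.3% of promoters, was matched in Retnla alone of these genes (TTCCTC, reverse strand), and the NF-kB motif GGGNNNTTCC, in 4.65%, in none of them. None of the matches in capitals overlapped. TATAAA, searched on the sense strand and not in capitals, occurred in 7.59% of promoters and began 30 bases before the start of Retnla and 31 before that of Chil4. The Chil3 window holds no full match, but a TATAAA begins 3 bases before the annotated start of Chil3 and ends past it. The Chil3 and Chil4 windows were 90.1% identical over 223 aligned positions. A match describes letters only, and a missing match says only that these letters are not in this window.

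Of the 45101 probe sets, 46.8% to 48.6% had the detection call Present, which says that the target probes outshone their mismatch controls. On each array the 95th percentile of signals called Absent, between 24.6 and 29.9, served as the level of background. The sort labels were borne out by marker levels. Of 12 measured Ly6Chigh markers, 9 were called lower in Ly6Clow in each genotype, and of 14 Ly6Clow markers 10 in WT and 11 in KO were called higher there. Over all genes, 4.99% in WT and 5.09% in KO were called lower in Ly6Clow, and 3.65% and 3.69% higher. The probe set for the sort marker itself carries a pair of symbols and was not analysed here, and neither was Mir146, so the genotype was not checked at the targeted gene.

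Chil3 had a high signal in Ly6Chigh monocytes of both genotypes and its lowest signal in Ly6Clow monocytes of the knockout. Its signal intensity was 7929.9 in WT Ly6Chigh, 5932.9 in KO Ly6Chigh, 1603.7 in WT Ly6Clow and 167.3 in KO Ly6Clow. It was Present on all 4 arrays, with a detection p-value of 0.000244 on each of the first 3 and 0.000732 on the last. Both Ly6Chigh arrays thus lay above both Ly6Clow arrays, and within each subset the KO array lay below the WT array. The Chil3 signal was 322 times the 95th percentile of Absent signals in WT Ly6Chigh, 206 times in KO Ly6Chigh and 57.7 times in WT Ly6Clow. In KO Ly6Clow it was 5.60 times that percentile, so the low value there was a measured level and not a bound.

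Retnla had like signals on 3 of the 4 arrays and a higher one on the other. Its signal was 142.6 in WT Ly6Chigh, 139.8 in KO Ly6Chigh, 172.7 in WT Ly6Clow and 506.8 in KO Ly6Clow. The array of KO Ly6Clow stood alone, and the order of the other 3 spans signals of 139.8 to 172.7, with no replicate to say whether they differ. Retnla was called Present on each array, but in Ly6Chigh of both genotypes close to the limit of that call. Its detection p-values were 0.0239 in WT Ly6Chigh, 0.00415 in WT Ly6Clow, 0.0303 in KO Ly6Chigh and 0.00293 in KO Ly6Clow, against 0.0474 for the weakest Present call anywhere in the data. Among probe sets within 1.5-fold of its signal, 3.08% to 4.11% had a detection p-value as high on each array except WT Ly6Clow, where the share was larger, and it was 3.39% in KO Ly6Clow. Retnla thus had less even support across its probe pairs than most probe sets of like brightness, also on the array where it was high. Its signal was 16.9 times the 95th percentile of Absent signals in KO Ly6Clow and between 4.85 and 6.21 times on the other arrays.

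**Figure D1:**
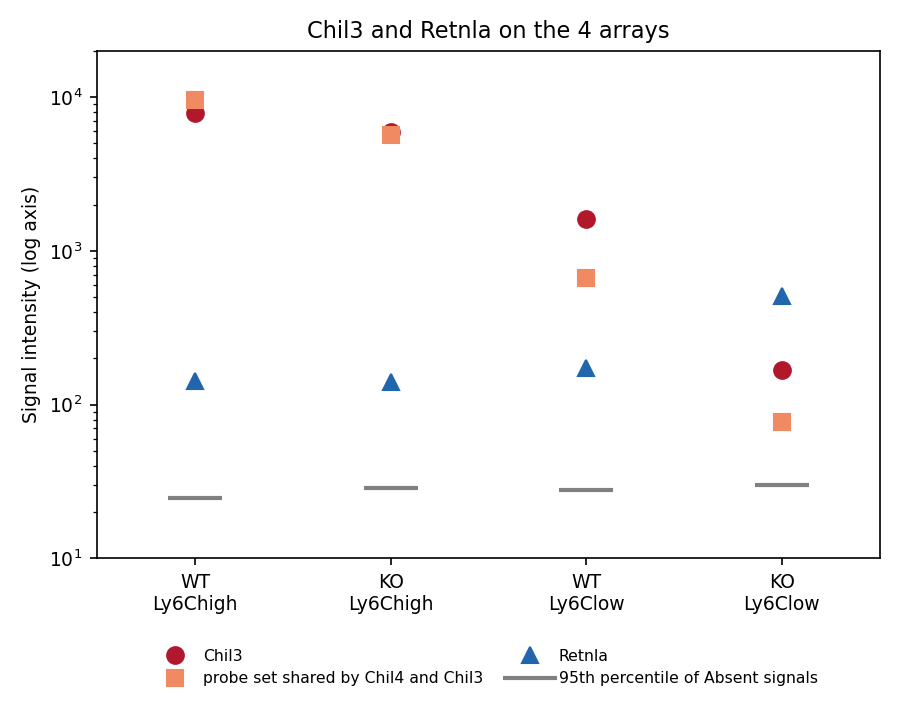
Signal intensity (vertical, log axis) of the Chil3, shared Chil4 and Chil3, and Retnla probe sets on the 4 arrays (horizontal), 1 point per array with no error bar because no group has a replicate. Grey dashes mark the 95th percentile of Absent signals, and Chil3 reaches 167.3 and Retnla 506.8 in KO Ly6Clow.

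The contrast that chose the genes was KO against WT in Ly6Clow monocytes. Chil3 was 9.59-fold lower in KO (log2 -3.26) and Retnla 2.93-fold higher (log2 1.55). A gene was called when its log2 ratio was at least 1 in size and the array with the higher signal had it as Present, at a signal of 100 or more. By this rule 20 of 10191 measured genes, or 0.196%, were called, 13 higher (0.128%) and 7 lower (0.0687%). Chil3 had the largest change of the 20 and Retnla the 4th largest. The called gene nearest the threshold was the metallopeptidase gene Amz1 at 1.02, and the nearest gene outside it at that signal was the chaperone gene Hspa1b at 0.99. Because these values selected the pair, nothing is read from the ranks. In a bulk sample, fewer cells that express a gene and less RNA per cell cannot be told apart, which holds for each difference below.

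The authors' own comparison of the same arrays had the same directions. In the authors' deposited table, Chil3 has a signed fold of -8 in KO against WT Ly6Clow with a decrease call, and Retnla a fold of 2.83 with an increase call. The authors' deposited table calls 1.48% of the 18194 genes increased and 2.2% decreased in that comparison, a looser standard than the 2-fold rule.

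The probe set annotated to both Chil4 and Chil3 gave a like picture for Chil3. Its signals were 9639.6 in WT Ly6Chigh, 5697.1 in KO Ly6Chigh, 670.2 in WT Ly6Clow and 76.9 in KO Ly6Clow, in the same order as those of the Chil3 probe set. In Ly6Clow it was 8.72-fold lower in KO (log2 -3.12), and in Ly6Chigh its log2 difference was -0.76. Chil4, also called Ym2, is a near copy of Chil3, and its own probe set was not called Present on any array, with signals of 26.7, 12.2, 22.7 and 8.4 in Ly6Chigh and Ly6Clow of WT and then of KO. Cross-hybridization between such close copies was not tested.

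KO against WT in Ly6Chigh monocytes is the only comparison that shares no array with the contrast used to choose the genes. Neither gene was called there, while 28 of 10402 measured genes, or 0.269%, were. Chil3 was 1.34-fold lower in KO (log2 -0.42), in the same direction as in Ly6Clow, and ranked 834 from the lowest of 10402 genes. Retnla differed by -0.03 on the log2 scale, from 142.6 to 139.8. In the authors' deposited table, Chil3 carries a fold of -1.32 with a decrease call in this comparison, and Retnla a fold of 1.0 with a no-change call; the same table calls 4.5% of genes decreased.

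The difference between the KO effects, Ly6Clow minus Ly6Chigh, was -2.84 for Chil3 and 1.58 for Retnla on the log2 scale. Of 9494 genes measured in both subsets, Chil3 had the 24th lowest and Retnla the 41st highest value. Since the Ly6Clow term of each difference selected the genes, these ranks are a description, and with 1 array per group the difference itself could not be tested.

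**Figure D2:**
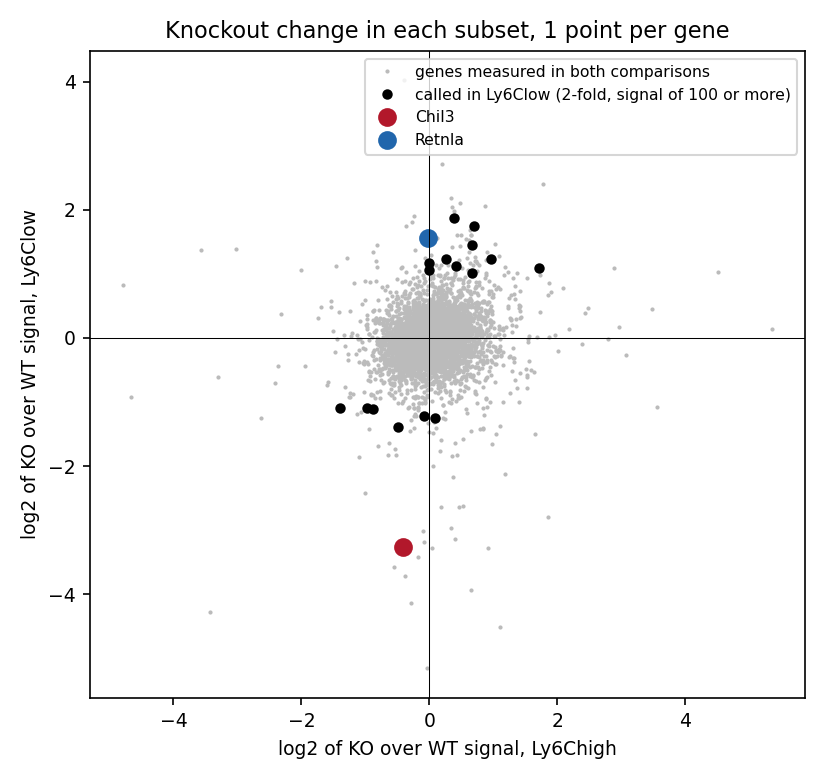
Log2 ratio of KO over WT signal in Ly6Chigh (horizontal) and Ly6Clow (vertical), 1 point per gene measured in both comparisons, with genes called in Ly6Clow in black; grey points beyond 1 or -1 are dim or not Present where brighter. Chil3 lies at -0.42 and -3.26 and Retnla at -0.03 and 1.55, both near 0 on the horizontal axis.

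Between subsets, Chil3 passed the 2-fold rule in both genotypes and Retnla in KO. In WT, the Chil3 signal in Ly6Clow was 4.94-fold below that in Ly6Chigh (log2 -2.31) and was called lower, as were 4.99% of 10535 measured genes. With calls either way, the background in this comparison was 8.65%. Retnla was 1.21-fold higher in Ly6Clow (log2 0.28) and was not called, while 3.65% of genes were called higher. In KO, Chil3 was 35.5-fold lower in Ly6Clow (log2 -5.15), the 22nd lowest value of 10410 genes, against a background of 5.09% called lower and 8.78% called either way. Retnla was 3.63-fold higher there (log2 1.86) and was called, as were 3.69% of genes higher. Both KO values share the KO Ly6Clow array with the contrast that chose the genes, and both WT values share the WT Ly6Clow array with it. The probe set shared with Chil4 gave steeper ratios, 14.4-fold lower in WT and 74.1-fold lower in KO. In the authors' deposited table, Chil3 is 5.66-fold higher in WT Ly6Chigh than in WT Ly6Clow and 39.4-fold higher in KO Ly6Chigh than in KO Ly6Clow, both with increase calls. The authors' deposited table gives Retnla folds of -1.32 and -4 in the same pair of comparisons, both with decrease calls. It calls 12.8% of all genes increased in each of these comparisons, and 11.2% decreased in WT and 9.53% in KO.

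Chil3 can be set beside other Ly6Chigh markers by the share of the Ly6Chigh signal that remained in Ly6Clow. For Chil3 this share was 20.2% in WT and 2.82% in KO. For the 12 Ly6Chigh markers with a signal of at least 100 in Ly6Chigh, the median was 6.33% in WT and 4.78% in KO. Chil3 kept more of its signal than 8 of 12 markers in WT and more than 4 of 12 in KO. Both shares use the Ly6Clow signals on which Chil3 was selected, so its change of place among the markers restates that selection. The coagulation factor gene F13a1 had the lowest share in both genotypes (0.584% and 0.740%), and Plac8 had the highest (94.7% and 102%). The chemokine receptor gene Ccr2, picked for its known role, kept 19.5% in WT, close to Chil3, and 15.9% in KO. Its log2 ratios of Ly6Clow over Ly6Chigh on that probe set were -2.36 in WT and -2.65 in KO. The other Present probe sets of Ccr2 gave -3.50 to -2.75 in WT and -3.71 to -3.58 in KO. The probe set shared by Chil4 and Chil3 kept 6.95% in WT and 1.35% in KO. The closeness of Ccr2 to Chil3 thus holds for 1 probe set per gene. None of the 11 markers measured in Ly6Clow was called in KO against WT there, and their median log2 difference was -0.14, beside -0.03 for all genes. In Ly6Chigh, 2 of 12 were called higher in KO, the chemokine receptor gene Ccr1 (1.27) and the thrombospondin gene Thbs1 (1.20), with a median of -0.10 beside -0.01 for all genes and 0.163% of all genes called higher. The summed signal of the list was 47905.4 in WT Ly6Chigh, 45243.7 in KO Ly6Chigh, 18097.7 in WT Ly6Clow and 16645.7 in KO Ly6Clow.

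**Figure D3:**
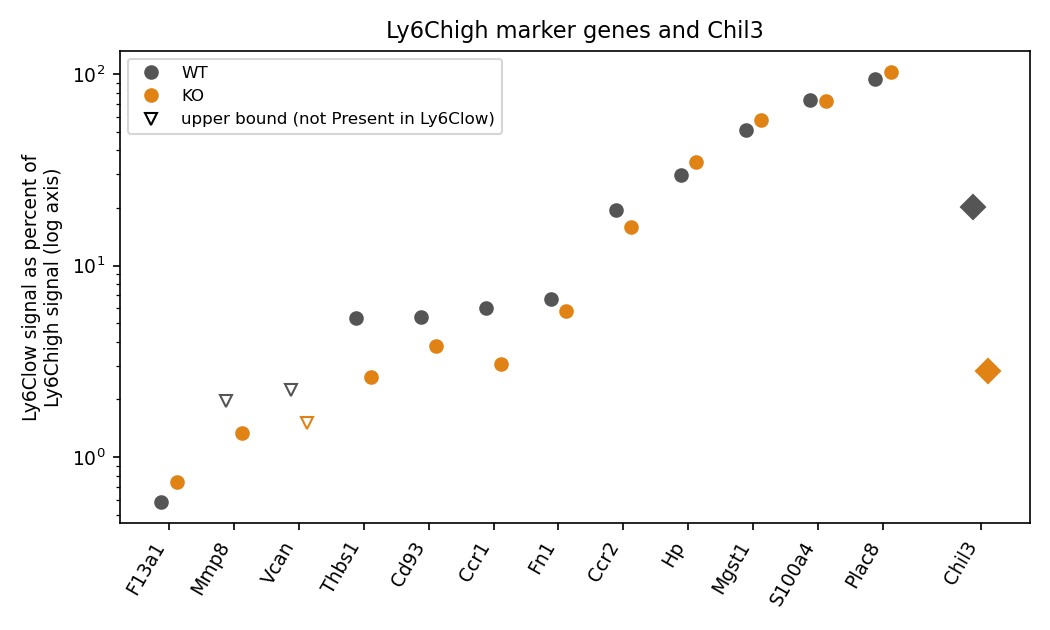
Percent of the Ly6Chigh signal that was found in Ly6Clow for Chil3 and each of 12 Ly6Chigh markers, in WT and in KO, on a log axis, with open triangles as upper bounds. Chil3 goes from 20.2% in WT to 2.82% in KO, which uses the signals that selected it, and Ccr2 goes from 19.5% to 15.9%. Each gene is shown by 1 probe set, and other probe sets of Ccr2 and the shared Chil4 and Chil3 probe set gave lower shares.

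No other measured chitinase-family gene passed the 2-fold rule between genotypes. Of 10 family genes 8 were on the array, and 3 besides Chil3 were measured. None of these was called in either KO comparison, and their median log2 difference in Ly6Clow was -0.13 beside -0.03 for all genes. With 0.196% of all genes called in Ly6Clow and 0.269% in Ly6Chigh, no call among 3 genes is near the background. Chid1, which encodes a lysosomal chitinase-domain protein, had signals of 120.1, 57.1, 120.4 and 57.1 in Ly6Chigh and Ly6Clow of WT and then of KO. It was called lower in Ly6Clow in both genotypes (log2 -1.07 and -1.08) and differed by 0.00 between genotypes in each subset, although its other Present probe set gave -0.24 in Ly6Clow and 0.35 in Ly6Chigh. Ctbs, the lysosomal chitobiase that trims sugar chains, differed by -0.13 in Ly6Clow and 0.08 in Ly6Chigh. Ovgp1, an oviduct glycoprotein related to chitinases and a chromosomal neighbour of Chil3, differed by -0.27 and 0.31. The active chitinases Chia1 and Chit1, the lectin gene Chil1 and Chil4 were not Present on any array.

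Of the resistin-like family, 3 of 4 genes had a probe set of their own. Retn, the gene of the adipocyte hormone resistin, had signals of 3.5, 11, 14.8 and 31.5 in Ly6Chigh and Ly6Clow of WT and then of KO, none of them called Present. Retnlb, an intestinal goblet cell gene, had signals of at most 0.8 and was never Present. Retnla was thus the one family member measured. Retnlg, a gene of neutrophils and bone marrow beside Retnla on chromosome 16, was not analysed here. The Retnla and Retnlg windows were 77.5% identical over 178 aligned positions.

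No gene that carries the IL-4 and IL-13 signal passed the 2-fold rule. Of 14 genes 13 were on the array, 9 were measured in Ly6Clow, and none was called in any of the 4 comparisons. Over all genes, 0.196% were called in KO over WT in Ly6Clow and 0.269% in Ly6Chigh. Between subsets the shares were 8.65% in WT and 8.78% in KO. An absence of calls among so few genes is near these shares. Their median log2 difference of KO over WT was 0.11 in Ly6Clow and 0.25 in Ly6Chigh, beside -0.03 and -0.01 for all genes. Stat6, named for its role, had signals of 1174.6, 1254.1, 1134.1 and 1352.5 in Ly6Chigh and Ly6Clow of WT and then of KO, or log2 differences of 0.11 in Ly6Clow and -0.05 in Ly6Chigh. Il4ra, the receptor chain shared by both cytokines, had the largest difference in Ly6Chigh (0.94, from 123.2 to 235.9). In Ly6Clow it differed by 0.43, while its other Present probe set gave -0.62 there and -0.19 in Ly6Chigh, so its direction is not settled. The decoy receptor gene Il13ra2 had the largest difference in Ly6Clow (-3.18), but its signals of 23.6 and 2.6 both lay below the 95th percentile of Absent signals. The cytokine genes Il4 and Il13 themselves, the kinase gene Jak3 and the feedback inhibitor gene Socs1 were not Present on any array.

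No other gene of alternative activation passed the 2-fold rule between genotypes on its brightest probe set. Of 21 such genes 20 were on the array, and 12 besides the pair were measured in each KO comparison. None was called in either, 6 of 12 lay above 0 in Ly6Clow, and the medians were -0.04 in Ly6Clow and 0.15 in Ly6Chigh. Over all genes, 0.196% were called in Ly6Clow and 0.269% in Ly6Chigh, so no call among 12 genes is near the background. By brightest probe set, the lipoxygenase gene Alox15 had the largest difference, -1.19 in Ly6Clow and -1.13 in Ly6Chigh, in the direction of Chil3. It missed the rule only by the signal minimum of 100, with 82.5 in WT and 36.2 in KO Ly6Clow. The other Present probe set of the transcription factor gene Egr2 gave 1.32 in Ly6Chigh. Those of the transglutaminase gene Tgm2 gave -1.04 to 0.35 in Ly6Clow. Arg1, the arginase that is the best known companion of Chil3 and Retnla in IL-4-treated macrophages, was not Present on any array. Mgl2, Ccl17, Ccl22, Ccl24 and Slc7a2 were likewise never Present. Between subsets several members differed. In WT, 1 of 13 was called higher and 3 lower in Ly6Clow, beside 3.65% and 4.99% of all genes. In KO, 2 were called higher and 4 lower, beside 3.69% and 5.09%. The lectin gene Clec10a was lower in Ly6Clow, with signals of 414.2 and 38.9 in WT and of 522.7 and 39.9 in KO for Ly6Chigh and Ly6Clow. The mannose receptor gene Mrc1 had log2 ratios of -2.62 in WT, not called, and -3.40 in KO. The scavenger receptor gene Msr1 (-1.87 and -2.41) and the transcription factor gene Irf4 (-1.03 and -1.68) were called lower in both genotypes. The other Present probe set of Irf4 gave -1.83 in WT and -0.71 in KO. Tgm2, the transglutaminase used as a marker of alternative activation in mouse and human, was called higher in Ly6Clow, with log2 ratios of 3.83 in WT and 4.06 in KO. Pdcd1lg2, which encodes the ligand PD-L2, was called higher in KO alone, where its signal was 143.1 in Ly6Clow and not Present in Ly6Chigh. In WT its Ly6Clow signal was 95.3, just under the minimum of 100. In KO, the list genes called lower in Ly6Clow were Clec10a, Mrc1, Msr1 and Irf4, and those called higher were Tgm2 and Pdcd1lg2. The KO calls of Chil3 and Retnla use the KO Ly6Clow array on which the pair was selected, so nothing is read from setting them beside these genes.

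**Figure D4:**
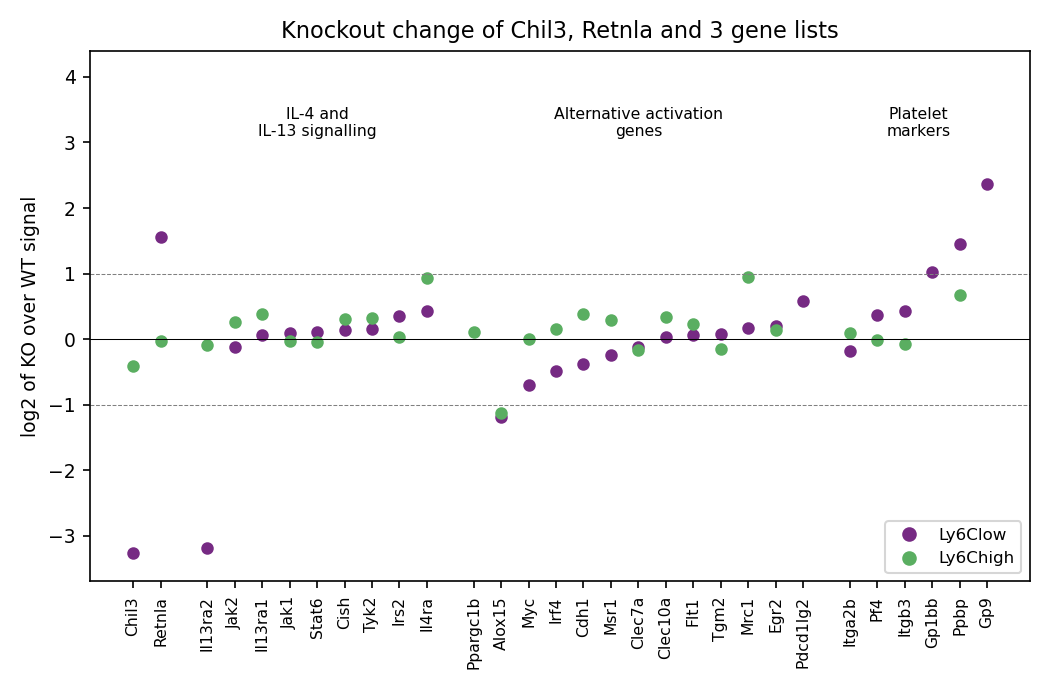
Log2 ratio of KO over WT signal (vertical) in Ly6Clow and Ly6Chigh for Chil3, Retnla and each measured member of the IL-4 and IL-13 signalling, alternative activation and platelet marker lists (horizontal), 1 point per comparison, with dashed lines at 1 and -1. Chil3 at -3.26 and Il13ra2 at -3.18 are lowest in Ly6Clow, and the signals of Il13ra2 lay below the 95th percentile of Absent signals.

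Transcription factors of the myeloid lineage were followed as regulators of such genes. None of 11 measured was called in either KO comparison, with medians of -0.04 in Ly6Clow and -0.12 in Ly6Chigh. Calls covered 0.196% of all genes in Ly6Clow and 0.269% in Ly6Chigh, so no call among 11 genes is near the background. Cebpa, a driver of granulocyte and monocyte commitment, had the largest difference in Ly6Clow (-0.30). It was called lower in Ly6Clow than in Ly6Chigh in both genotypes (log2 -1.60 in WT and -1.81 in KO), as was Cebpd (-1.78 and -1.68), although the other Present probe set of Cebpd gave -0.19 and -0.37. Pparg, the lipid-sensing nuclear receptor, was called higher, with signals of 84.5 and 1269.0 in WT and of 94.1 and 1542.3 in KO for Ly6Chigh and Ly6Clow. No other of the 11 measured members was called between subsets. Of all genes, 4.99% in WT and 5.09% in KO were called lower in Ly6Clow there, and 3.65% and 3.69% higher.

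Several markers of other cells that make Chil3 or Retnla were followed beside the pair. Among 10 neutrophil markers on the arrays none was called in KO against WT in Ly6Clow, where 0.196% of all genes were. The median of the 7 measured was 0.29. The calprotectin genes S100a8 and S100a9 were lower in KO in both subsets. Their log2 values were -0.87 and -0.93 in Ly6Clow and -1.19 and -0.85 in Ly6Chigh. Of these only S100a8 in Ly6Chigh was called, where 0.106% of all genes were called lower. Csf3r, Clec4d and Trem1 went the other way in Ly6Clow, at 0.29, 0.62 and 0.51, and were not called. The summed neutrophil marker signal was 2475.8 in WT and 2361.9 in KO Ly6Clow, and 5444.7 and 4571.0 in Ly6Chigh. The part of neutrophils in the Chil3 difference was not tested. Of 11 neutrophil granule and precursor genes, Camp, Ngp, Ltf, Elane and Itgb2l were not Present on any array. In Ly6Clow only Lcn2 was Present, at signals of 18.8 in WT and 19.2 in KO that lay below the 95th percentile of Absent signals, so this list was at background there. In Ly6Chigh, 1 of 6 measured genes of the list, Lcn2, was called lower in KO, where 0.106% of all genes were. Its signal was 482.0 in WT and 205.8 in KO Ly6Chigh (log2 -1.23). The median of the 6 was -0.28 beside -0.01 for all genes, and 1 of them lay above 0. Of 9 eosinophil, basophil and mast cell markers, 0 were Present on any array.

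Macrophage and dendritic cell lists had 0 calls in KO against WT Ly6Clow, where 0.196% of all genes were called. For so few genes, 0 calls is near that share. The medians there were 0.12 for 9 measured red pulp macrophage markers, -0.05 for 8 serous cavity macrophage markers and 0.02 for 6 dendritic cell genes. Gata6, the factor that defines peritoneal macrophages, was not Present on any array. The summed red pulp signal was 3480.0 in WT and 3761.2 in KO Ly6Clow. Adgre1 alone gave 2793.9 and 3037.9 of these, so the sum mostly follows that gene. The summed serous cavity signal ranged from 1004.3 to 1129.8 over the 4 arrays. The dendritic cell sum was 4520.9 and 4187.4 in Ly6Clow of WT and KO. Of the B cell list, 1 of 4 measured genes, Ms4a1, was called lower in KO Ly6Clow (log2 -1.12), where 0.0687% of all genes were, and the sum was 822.4 in WT and 485.1 in KO. The T and NK cell sum lay between 86.3 and 127.2 on all arrays, and 0 of 5 erythroid markers were Present.

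Of the platelet markers, 1 passed the 2-fold rule in KO against WT Ly6Clow. Of 7 on the array, 6 were measured in Ly6Clow, 5 of these lay above 0 in KO over WT, and 1, the platelet chemokine gene Ppbp, was called higher, where 0.128% of all genes were. The median of the 6 was 0.73 beside -0.03 for all genes, and lay between Itgb3 (0.43) and Gp1bb (1.03). Gp1bb was Absent in WT Ly6Clow, where its signal of 19.4 was below the 95th percentile of Absent signals, 27.8. The other Present probe set of Gp1bb gave -0.09. Ppbp had signals of 58.8, 97.9, 93.7 and 267.9 in Ly6Chigh and Ly6Clow of WT and then of KO. Pf4, another platelet chemokine gene, went from 220.2 to 283.6 in Ly6Clow, and Gp9, a subunit of the von Willebrand factor receptor, from 9.8, called Absent, to 50.5. Itga2b, the platelet integrin alpha chain, went the other way by -0.18. The summed platelet signal was 400.2 in WT Ly6Chigh, 468.2 in KO Ly6Chigh, 583.0 in WT Ly6Clow and 909.9 in KO Ly6Clow, so the array with the highest Retnla signal also had the highest platelet sum. The part of platelets in the Retnla difference was not tested.

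The genes most like each of the pair over the 4 arrays were found by the root mean square difference of log2 profiles, each centred on its own mean, among 7389 genes that reached a signal of 100 where brightest. The measure uses the arrays that chose the pair and says nothing of shared control. Nearest to Chil3 were Slpi, a secreted inhibitor of neutrophil serine proteases (0.790), Slc25a4, a mitochondrial nucleotide carrier (0.864), the membrane protein gene Ms4a8a (0.896), the phospholipase gene Plcb1 (0.896) and Cd93, a receptor of myeloid and endothelial cells (0.981). Slpi had signals of 1775.1, 330.4, 1267.6 and 126.7 in Ly6Chigh and Ly6Clow of WT and then of KO and was called lower in KO Ly6Clow (log2 -1.38). The remaining 4 were not called there, with log2 values from -0.93 to -0.70.

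Retnla had closer neighbours in profile. These were Gng11, a G protein gamma subunit (0.120), the secreted ligand gene Wnt6 (0.186), Ctla2a, which encodes a cysteine protease inhibitor (0.194), Lpp, a protein of cell adhesion sites (0.215), and Cog7, a Golgi complex subunit (0.239). Each had its highest signal in KO Ly6Clow, and the first 4 were called higher there, with log2 values of 1.40, 1.17, 1.87 and 1.22, while Cog7 had 0.94. Ctla2a had signals of 107.3, 145.9, 140.1 and 533.8 in Ly6Chigh and Ly6Clow of WT and then of KO. Gng11 was Present on the KO Ly6Clow array alone, where its signal was 254.4.

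**Figure D5:**
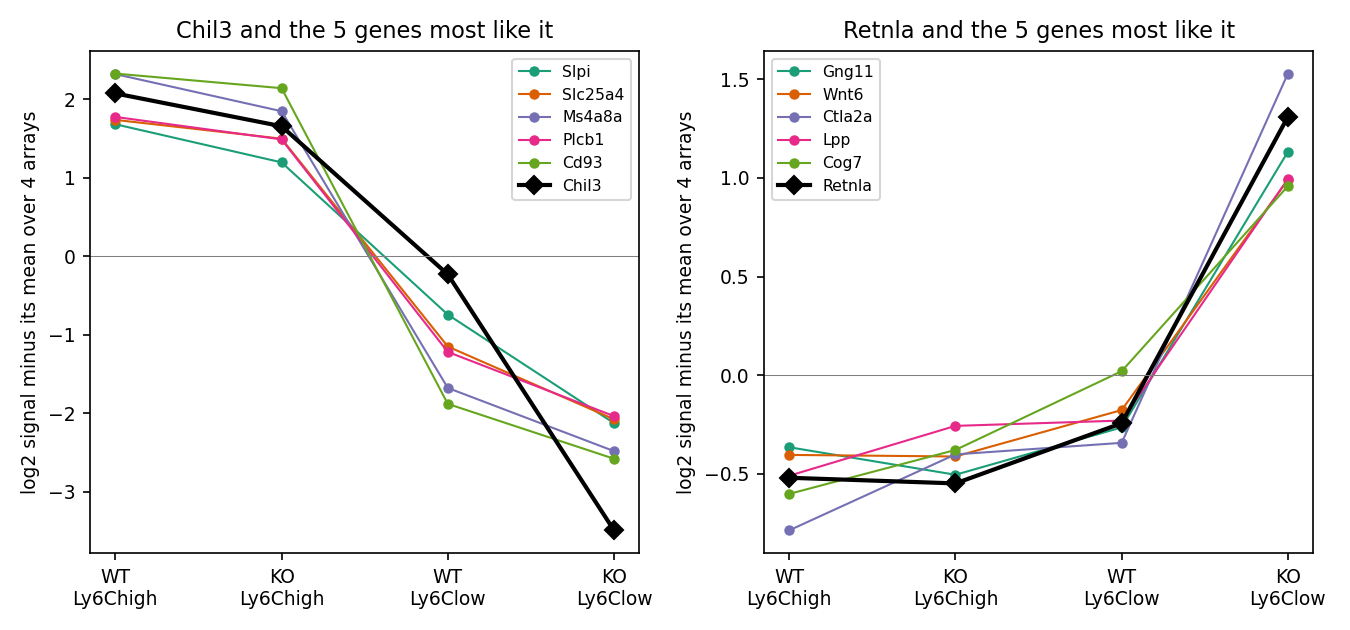
Log2 signal centred on each gene's mean (vertical) over the 4 arrays (horizontal) for Chil3 and Retnla and, for each, the 5 genes with the most similar profile, with lines joining the points of a gene and signals under the 95th percentile of Absent signals raised to it. The Chil3 point in KO Ly6Clow lies below those of its 5 genes, whereas Retnla and its 5 genes lie close together.

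None of the measured genes beside the pair on the chromosomes passed the 2-fold rule. On chromosome 3, the 3 nearest measured genes on each side of Chil3 were Atp5pb, Wdr77 and Ovgp1, and Dennd2d, Cept1 and Dram2. Their log2 differences of KO over WT in Ly6Clow ranged from -0.27 to 0.13, and none was called in any of the 4 comparisons. On chromosome 16, the nearest measured genes to Retnla were Plcxd2, Cd96 and Dppa4, and Dzip3, Cip2a and Gm4802, and none of these was called in any comparison in which it was measured. Of all genes, 0.196% were called in KO over WT in Ly6Clow and 0.269% in Ly6Chigh. Between subsets the shares were 8.65% in WT and 8.78% in KO, so an absence of calls among so few genes is near them.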

How the data were processed

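RNA of sorted splenic monocytes was hybridized to 4 Affymetrix mouse expression arrays. Signal intensity is as the authors deposited it, on a linear scale, per the file headers converted for the BioRetis database. The trimmed mean signal was between 149 and 150.0 on each array, so the deposited values share a common scale, while the algorithm behind them is not stated there. Per the labels, Expression Console 1.2.1 made the raw data; the submitters' processing notes also list GCOS. The deposited detection p-value and call (Present, Marginal or Absent) were made with the Affymetrix software, per the file headers. Signed fold changes and change calls are those of the authors' deposited table. A second deposited table held the same signals (0 of 180404 values differed).

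Of 45101 probe sets, 34958 had 1 gene symbol, 932 several and 9211 none, and symbols were updated through RefSeq (GRCm38.p6). For each gene the probe set that was brightest on average was used. Log2 ratios were taken without an offset, and a gene counted as measured when either array compared had it Present. The members, the 17 gene lists and the rule for genes named were chosen with earlier results of these data known. The rule named every family member with a probe set, up to 4 called members per list and comparison, otherwise the measured member with the largest change, the 5 most similar profiles and 3 chromosomal neighbours on each side. Stat6, Arg1, Ccr2, S100a9, Pf4, Gp9, Itga2b, Itgb3, Gp1bb, Adgre1 and the genes listed as not Present were named outside it, after their values had been seen. The fold rule was tested on simulated data with known changes added and no noise. That checks the code and says nothing of the rule's error rate on single arrays. Python 3.11.15, pandas 2.3.3, numpy 2.4.6, Biopython 1.88 and matplotlib 3.10.9 were used. The number of arrays limits the precision, so no test was possible.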

Additional observations from a re-analysis of the deposited data

Results flagged for a closer look

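The KO over WT difference of Retnla was 1.55 on the log2 scale in Ly6Clow and -0.03 in Ly6Chigh, and the first minus the second was 1.58. It is singled out because the signs of these values differ. The value in Ly6Chigh is so close to 0 that its sign says nothing of a movement, and the authors' deposited table calls it no change. The value in Ly6Clow chose the gene. The difference was not tested, since each group had 1 array.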

How the results depend on the processing

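Median centring (array shifts of at most 0.03 on the log2 scale), quantile normalization, an offset of 32 and background subtraction were tried for both genes, and the probe set shared with Chil4 for Chil3, the last chosen after seeing the data. The mean of a gene's probe sets could not change either gene, as each has 1 of its own. The 36 other alternative values kept their direction and their side of the 2-fold rule, 2 of them at a larger size. The KO difference in Ly6Clow ranged from -3.29 to -3.04 for Chil3 and from 1.40 to 1.56 for Retnla, and that of Chil3 in Ly6Chigh from -0.76 to -0.21. With the shared probe set, the Chil3 ratio of Ly6Clow over Ly6Chigh was -3.85 in WT and -6.21 in KO, and the cause was not tested. Counts of called genes depended more on the settings. In KO over WT Ly6Clow, 20 became 12 with the offset, 34 with the mean of probe sets and 322 with no signal minimum. In KO over WT Ly6Chigh, 28 became 17 with the offset and 338 with no minimum. With no minimum, 911 became 1654 between subsets in WT and 914 became 1576 in KO, since dim genes then enter. No paired analysis was possible because each group had 1 array, and for the same reason no array could be left out.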
